A study of Mus musculus with 6 samples.

Results

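Solute carriers are membrane transporters whose mouse genes carry symbols of the Slc series. The genes described here are the rows of the raw count table whose symbol starts with Slc and a digit and whose counts over the 6 libraries sum to at least 60. Left out by name were Slc2a1, Slc2a3, Slc7a2, Slc7a11, Slc11a1, Slc11a2, Slc16a1, Slc16a3, Slc39a14 and Slc40a1. That rule took 168 of 369 Slc rows, out of 23413 rows in all. Of the other Slc rows, 88 had no count in any library, 103 had 1 to 59 counts and 10 were those left out by name. Just below the threshold lay Slc29a2 (49 counts), Slc6a15 and Slc39a8 (50 each) and Slc9a9 (51), and just above it Slc22a15 (63), Slc39a12 (66), Slc25a35 (67) and Slc9a3r2 (75). All 168 members passed the filter on low counts and were tested.

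The cells were alveolar macrophages, which patrol the air-filled spaces of the lung, taken by lavage from mice labelled WT (wild type). A control group, a group given 100 ng/mL lipopolysaccharide (LPS) for 4 h in vitro and a group given the same LPS together with 50 nM vitamin D3 (VD3) for 4 h held 2 RNA-seq libraries each. LPS is a bacterial cell wall component that activates Toll-like receptor 4, and VD3 acts through the vitamin D receptor, a nuclear receptor, once converted to its hormone form. All 6 libraries share the WT genotype. Not given in the sources used here are the age of the mice, the culture time of the control cells and whether 2 libraries of a group stem from different mice. The p-values therefore measure only the spread between libraries, which may be technical.

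Solute carriers move amino acids, sugars, ions, metals, vitamins and nucleotide derivatives across the plasma membrane and the membranes of organelles. Most work as exchangers, cotransporters with sodium or protons, or uniporters, and the large Slc25 family sits in the inner mitochondrial membrane. Macrophages use them to take up substrates for protein and nitric oxide synthesis, to handle metals from ingested red cells and bacteria, and to export what lysosomes break down. By substrate class, the members comprised 34 mitochondrial carriers, 25 transporters of amino acids or peptides, 22 of metals or heme, 21 of the Slc35 family of nucleotide sugar transporters and their relatives, 20 of inorganic ions, 12 of vitamins, choline or lipids, 12 of organic ions, amines or other substrates, 10 of sugars or polyols, 4 of carboxylates and 3 of nucleosides. The last 5 carry an Slc symbol but encode no carrier, such as Slc9a3r1, the PDZ scaffold also called NHERF1. Some members were placed by their Slc family, so a class can hold carriers of other substrates. The serotonin transporter Slc6a4, for example, stands in the amino acid class.

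Library totals lay between 5022314 and 5465223 counts. Markers of the labelled cell type were present: of 20 alveolar macrophage markers 18 were found in the table, none was at 0 in every library, and their summed level was 10910 to 16747 CPM (counts scaled to library size and by the TMM method of edgeR). Markers of other cells were low, with sums of 116 to 321 CPM for 14 epithelial, 16.2 to 35.8 for 9 neutrophil, 12.8 to 38.7 for 10 lymphocyte, 48 to 86.2 for 9 stromal and endothelial and at most 0.171 for 5 erythroid genes. Of the 18 alveolar macrophage markers 3 were higher and 11 lower after LPS (median log2 fold change -0.78), and 3 higher and 11 lower in LPS + VD3 against control. Over all 10724 genes tested, 15.7% were higher and 16.2% lower after LPS, and 17.7% and 17.3% in LPS + VD3 against control. The sums of 3 other lists were lower in all 4 treated libraries than in control: epithelial (311 and 321 CPM in control, 116 to 160 treated), lymphocyte (38.7 and 34.5, 12.8 to 19.5) and stromal and endothelial markers (81.7 and 86.2, 48 to 70). Their part in the results was not tested. Slc34a2, the phosphate carrier of type II alveolar cells, had 0 counts in all 6 libraries. The 2 LPS libraries differed with the GC content of the transcripts. Across the 168 members, Spearman's rho between GC content and the log2 ratio of LPS 1 to LPS 2 was 0.700, against 0.203 for the control pair and 0.096 for the LPS + VD3 pair. The labels number LPS 1 in another series than the other 5 libraries; it is 1 library, so its number and the library cannot be told apart.

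The highest level per length among the members in control was that of Slc25a5, the ADP/ATP translocase of the inner mitochondrial membrane, at 419 ± 3.21 CPM per kb of its longest transcript (SD, n = 2). Next came the taurine transporter Slc6a6 (148 ± 3.4 CPM per kb), the heme transporter Slc48a1 (117 ± 3.8), the zinc importer Slc39a1 (77.5 ± 3.5) and the mitochondrial phosphate carrier Slc25a3 (73.1 ± 2.92). Slc39a1 and Slc25a3 lay within the spread of each other. Slc3a2, the heavy chain that carries several amino acid exchangers to the cell surface, ranked sixth with 69.2 ± 2.55 CPM per kb. In LPS, Slc25a5 and Slc3a2 both stood at 372 CPM per kb (± 30.5 and ± 65.7), followed by the lysosomal peptide and histidine transporter Slc15a3 (158 ± 38.5) and the copper transporter Slc31a2 (146 ± 32), which overlapped in their spread. In LPS + VD3, Slc3a2 (320 ± 16.2) and Slc25a5 (314 ± 75.4) again overlapped, and Slc9a3r1 (212 ± 20.7) ranked above Slc15a3 (161 ± 20.2). The 10 highest members held 43.2% of the summed level per kb of all members in control, 50.4% in LPS and 51.8% in LPS + VD3, while the median member stood at 7.06, 6.9 and 5.76 CPM per kb. Slc25a5 has near-identical copies, and how shared reads were counted is not known here, so its level is uncertain.

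**Figure D1:**
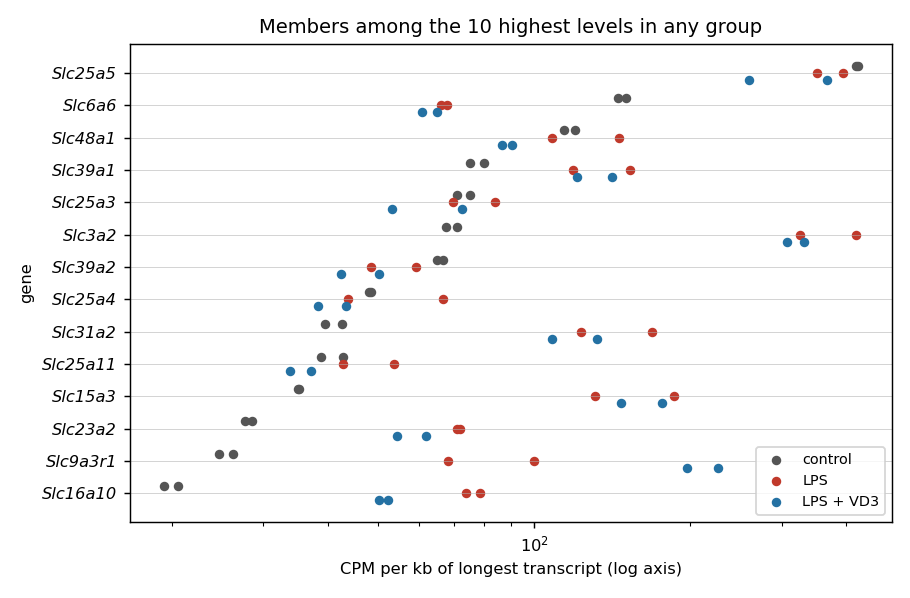
Level of members that ranked among the 10 highest in at least 1 group, with 1 such member not shown, in TMM-scaled CPM per kb of the longest transcript on a log axis, with 1 point per library (grey control, red LPS, blue LPS + VD3). Slc3a2 went from 69.2 CPM per kb in control to 372 in LPS and met Slc25a5, while Slc6a6 lay at 148 in control and at 66.8 in LPS.

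The first comparison asked what LPS changed among these genes. In LPS against control, 26 of 168 members were higher (15.5%) and 35 were lower (20.8%) by edgeR's quasi-likelihood test at a Benjamini-Hochberg adjusted p under 0.05. Among all 10724 genes tested, 15.7% were called higher and 16.2% lower. The share of higher members was thus near the background, and that of lower members somewhat above it. The members' median log2 fold change was -0.06, against 0.01 for all genes tested. Of the 168 members, 19 were called with a rise and 24 with a fall of at least 2-fold. Of all 10724 genes tested, 985 and 1071 were, so changes in both directions were not particular to the members. Their summed level was 8471 and 8408 CPM in the control libraries and 11288 and 9874 in the LPS libraries. In bulk RNA, fewer cells of a type and less RNA per cell cannot be told apart. The split of calls depended on scaling. Without scaling beyond library size, which puts the median of all genes at -0.289, 22 members were higher and 58 lower. With the deposited log2 values, 23 members were higher and 57 lower. The share of all genes called was also larger, at 38.6% without scaling and 36% with the log2 values, against 31.8% in the main fit.

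**Figure D2:**
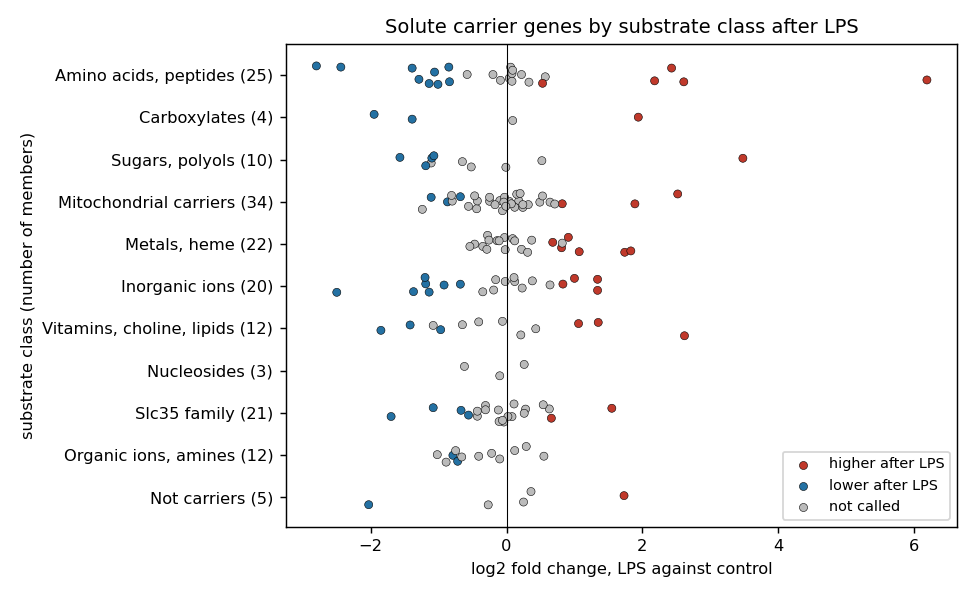
Log2 fold change of LPS against control for each of the 168 members, 1 point per gene, in rows by substrate class with the number of members in parentheses; red points were called higher, blue points lower and grey points were not called (edgeR adjusted p under 0.05). Amino acid transporters spread from -2.80 to 6.19, metal and heme transporters held 6 red and 0 blue points, and most of the 34 mitochondrial carriers stayed near 0.

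Amino acid and peptide transporters held the members that moved most in either direction: of 25, 5 rose and 9 fell. The glutamate transporter Slc1a2, best known from astrocytes, stood at 2.57 and 2.24 CPM in control, 187 and 167 in LPS, then 113 and 112 in LPS + VD3. It was low in control and high in both treated groups, with no overlap. The change after LPS, 6.19 ± 0.22 on the log2 scale (SE; adjusted p = 3.01e-08 by edgeR), was the highest among the members. Slc3a2 had 200 and 190 CPM in control, 1177 and 916 in LPS, then 867 and 932 in LPS + VD3. Both LPS libraries lay far above control, and the LPS + VD3 libraries overlapped with the LPS ones. The rise after LPS was 2.43 ± 0.17 (edgeR adjusted p = 3.15e-06). Slc15a3, which moves histidine, di- and tripeptides and bacterial muropeptides out of endolysosomes, went from 170 and 171 CPM to 904 and 639 (2.18 ± 0.19). With VD3 it stood at 715 and 854 CPM, within the range of the LPS libraries. Its relative Slc15a4, which serves the same compartment, had 27.6 and 25 CPM in control and 31.4 and 23.3 in LPS and was not called (0.06 ± 0.21). Slc6a12, a betaine and GABA transporter, was low but clearly apart: 3.94 and 3.69 CPM in control against 29.6 and 17.4 in LPS (2.61 ± 0.31). The fifth that rose, Slc7a8, a light chain for neutral amino acids, gained 0.53 ± 0.15 and lost its call without either control library (edgeR adjusted p = 0.218 and 0.192) and without scaling (0.255).

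The 9 members of the class that fell included transporters of large neutral amino acids. Slc43a2, a facilitative transporter of large neutral amino acids, had 126 and 124 CPM in control, 19.5 and 16.4 in LPS, then 14 and 13.3 in LPS + VD3. The drop by 2.80 ± 0.18 (log2; edgeR adjusted p = 1.77e-06) was the steepest of any member, and the control libraries lay far above the other 4. Slc7a5, which pairs with Slc3a2 to import leucine and other large amino acids, stood at 47.3 and 50.6 CPM in control and at 12.3 and 5.66 in LPS. The heavy chain Slc3a2 thus rose while this light chain fell by 2.44 ± 0.29 (log2; edgeR adjusted p = 0.000117). Slc7a11, the cystine light chain left out of the members by name, rose by 3.38 ± 0.23. Slc6a6 remained among the more abundant members, with 898 and 928 CPM in control and 419 and 408 in LPS (-1.14 ± 0.14, edgeR adjusted p = 0.000138). Slc36a1, a lysosomal proton-coupled exporter of small amino acids, went from 88.7 and 86.7 to 36.5 and 35.2 CPM (-1.29 ± 0.18). Slc38a9, the lysosomal arginine sensor of the mTORC1 pathway, fell by 1.06 ± 0.23 on the log2 scale, and lost its call without control 1 (edgeR adjusted p = 0.0874). The serotonin transporter Slc6a4, which is also on the list of stromal and endothelial markers whose sum was lower after LPS, fell by 1.39 ± 0.23 and Slc7a7, a light chain that exchanges cationic and neutral amino acids, by 1.01 ± 0.21.

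The glutamine carriers did not move as 1 group. Slc1a5 (94.9 and 81.4 CPM in control, 53.6 and 44.7 in LPS) and Slc38a2 (80.9 and 84 against 37.3 and 53.8) fell by 0.84 ± 0.21 and 0.85 ± 0.21. Slc38a1 stood at 143 and 138 CPM in control and 124 and 139 in LPS, and was not called (-0.09 ± 0.15). Without control 1 the Slc1a5 and Slc38a2 calls were lost (edgeR adjusted p = 0.106 and 0.0525), and without control 2 that of Slc38a2 (0.0723).

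**Figure D3:**
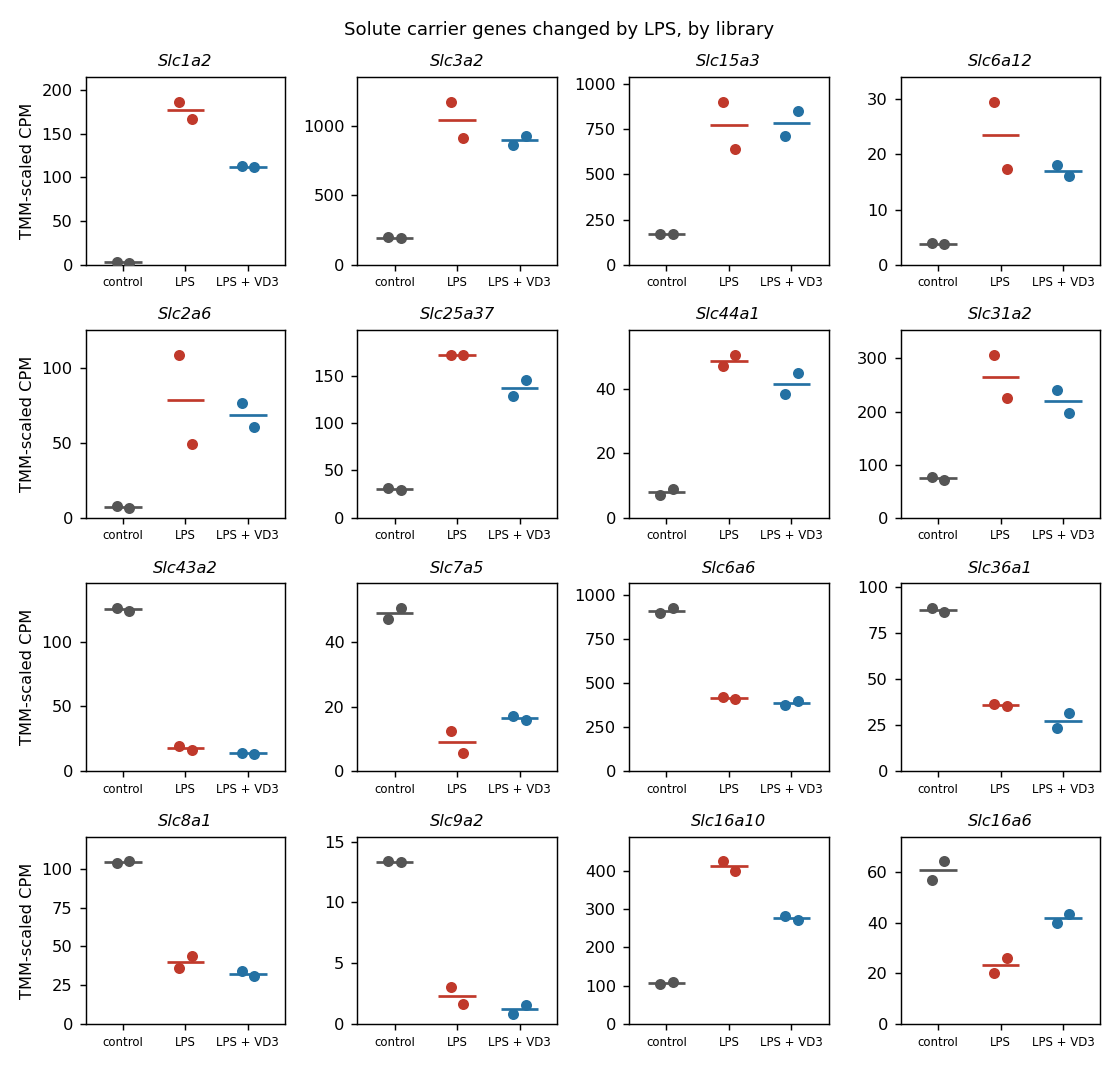
TMM-scaled CPM of 16 members called in LPS against control, 1 panel per gene with its own axis from 0; points are the 2 libraries of each group (grey control, red LPS, blue LPS + VD3) and lines their means. The panels were picked among called members, so it is no further result that their LPS points lie apart from the control points. For Slc1a2 these were 187 and 167 against 2.57 and 2.24 CPM. For Slc2a6, Slc6a12 and Slc15a3 the 2 LPS libraries lie far from each other.

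Promoter sequence was at hand for 128 of the 168 members, from RefSeq on GRCm38.p6, read over the 250 bases before each annotated start; GRCm38 is the assembly behind mm10, which the submitters' processing notes name. Both strands were searched for the NF-kB consensus, the core of the interferon response element, the C/EBP-ATF element TTGCATCA, the cyclic AMP response element TGACGTCA and a relaxed form of the vitamin D response element of DR3 type. An NF-kB match was found in 13 of 128 members (10.2%) and in 8.23% of 27025 genes in the table. Among called members it was found in 2 of 23 that were higher and 4 of 26 that were lower after LPS. The 4 windows below are shown because they belong to members with large changes in opposite directions: Slc6a12, which rose, and Slc43a2, which fell, both hold an NF-kB match, Slc25a25, which rose, holds the cyclic AMP element at 1 of its 3 starts, and Slc9a3r1, the member raised most by VD3, holds none of the 5 motifs. Capitals mark the match.
Slc6a12 (chr6:121342324-121342573, plus strand): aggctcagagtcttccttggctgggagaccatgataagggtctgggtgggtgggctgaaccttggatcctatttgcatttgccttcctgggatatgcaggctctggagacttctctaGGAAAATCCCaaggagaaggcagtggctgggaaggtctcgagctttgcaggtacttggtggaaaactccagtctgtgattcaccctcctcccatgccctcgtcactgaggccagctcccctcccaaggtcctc
Slc43a2 (chr11:75531444-75531693, plus strand): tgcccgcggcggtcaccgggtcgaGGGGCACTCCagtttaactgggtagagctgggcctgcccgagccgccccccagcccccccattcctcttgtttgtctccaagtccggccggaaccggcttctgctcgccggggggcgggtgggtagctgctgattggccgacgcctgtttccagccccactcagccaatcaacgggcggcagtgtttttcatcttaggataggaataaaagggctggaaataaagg
Slc25a25 (chr2:32424067-32424316, minus strand): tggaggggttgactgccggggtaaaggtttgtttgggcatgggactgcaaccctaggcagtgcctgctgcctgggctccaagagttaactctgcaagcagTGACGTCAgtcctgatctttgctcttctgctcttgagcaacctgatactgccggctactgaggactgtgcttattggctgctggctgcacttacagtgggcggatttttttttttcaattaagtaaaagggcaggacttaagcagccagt
Slc9a3r1 (chr11:115163091-115163340, plus strand): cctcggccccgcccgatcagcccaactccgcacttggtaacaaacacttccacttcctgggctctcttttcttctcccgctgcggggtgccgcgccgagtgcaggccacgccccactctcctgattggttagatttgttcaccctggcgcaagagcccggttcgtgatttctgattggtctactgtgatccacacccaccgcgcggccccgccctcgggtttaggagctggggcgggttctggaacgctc
The match lies 133 to 124 bases before the start in Slc6a12, 226 to 217 before it in Slc43a2 and 150 to 143 before it in Slc25a25. Slc6a12 has 5 annotated starts and Slc43a2 has 2, and the match stands at 1 of them in each. The relaxed vitamin D receptor element was in none of the 128 members and in 69 of the 27025 genes (0.255%). The interferon core was in 3 members (2.34%, against 3.46% of all genes), the C/EBP-ATF element in 2 (1.56%, against 0.918%) and the cyclic AMP element in 3 (2.34%, against 1.77%). A match describes letters in these windows and is not a measured binding site.

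Of 4 members in the carboxylate class, 3 were called, all of the Slc16 family. Slc16a10, placed here by its family, a carrier of aromatic amino acids and thyroid hormones by facilitated diffusion, rose from 104 and 111 CPM to 425 and 399 in LPS, and stood at 281 and 271 in LPS + VD3. The LPS + VD3 libraries lay between the other groups without overlap, but the difference from LPS was not called. Its change after LPS was 1.94 ± 0.14 (edgeR adjusted p = 5.2e-06). Slc16a6, a monocarboxylate carrier linked to ketone bodies, fell from 57 and 64.3 CPM to 20.3 and 26.1 (-1.39 ± 0.19), and Slc16a7, a monocarboxylate carrier, from 5.48 and 7.21 to 1.64 and 1.62 (-1.95 ± 0.37). The lactate carriers Slc16a1 and Slc16a3, not counted among the members, fell by 2.48 ± 0.20 and 0.81 ± 0.26.

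Among 10 sugar and polyol transporters 1 rose and 4 fell. Slc2a6, a hexose transporter of the lysosome, had 7.71 and 6.41 CPM in control, 109 and 49 in LPS, then 76.6 and 60.9 in LPS + VD3. The LPS libraries differed by over 2-fold from each other, yet both lay far above control (3.48 ± 0.37, edgeR adjusted p = 6e-05). The urate and hexose transporter Slc2a9 fell by 1.57 ± 0.31 on the log2 scale, the myo-inositol cotransporter Slc5a3 by 1.19 ± 0.24, the sugar phosphate exchanger Slc37a1 by 1.10 ± 0.34 and Slc45a4, of a family of proton-coupled sugar transporters, by 1.07 ± 0.23. The Slc37a1 call was lost in 7 of 16 alternatives, among them DESeq2 (adjusted p = 0.247), and the Slc45a4 call without control 2 (edgeR adjusted p = 0.06). Slc37a2, a phosphate-linked sugar phosphate exchanger known from macrophages, was not called, with 66.3 and 72.6 CPM in control and 49.7 and 47.5 in LPS (-0.52 ± 0.19, edgeR adjusted p = 0.0689).

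Of 22 metal and heme transporters 6 were higher and 0 lower with all libraries and TMM scaling. Without scaling the counts were 5 higher and 3 lower, in the deposited log2 table also 5 and 3, with GC offsets 6 and 1, without LPS 1 7 and 3 and without LPS 2 8 and 1. The copper transporter Slc31a2 went from 77.4 and 71.8 CPM in control to 307 and 225 in LPS (1.83 ± 0.19, edgeR adjusted p = 5.31e-05). Slc31a1, the high-affinity copper importer of the plasma membrane, had 60.5 and 60.9 CPM in control and 104 and 123 in LPS (0.91 ± 0.16). Both copper transporters were thus higher in each LPS library than in each control library. Of the zinc transporters, Slc30a4, which loads zinc into vesicles, rose from 12 and 7.85 to 29.6 and 36.4 CPM (1.74 ± 0.24), Slc30a6 of the Golgi by 1.07 ± 0.19 and the importer Slc39a1 by 0.81 ± 0.17. Slc41a2, a magnesium transporter, rose by 0.68 ± 0.16. Without control 2 the Slc39a1 call was lost (edgeR adjusted p = 0.0709), and Slc41a2 lost its call without either control library (0.117 and 0.097) and without scaling (0.0744). The zinc exporter Slc30a1, itself a target of the metal-sensing factor MTF1, had 52.3 and 51.4 CPM in control and 45.4 and 65.3 in LPS and was not called (0.09 ± 0.21).

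Mitochondrial carriers, the largest class, had 3 of 34 members higher and 3 lower, with a median of -0.02. Slc25a37, or mitoferrin-1, which brings iron into mitochondria for heme and iron-sulfur clusters, rose from 31 and 28.8 CPM to 172 and 172 in LPS (2.52 ± 0.16, edgeR adjusted p = 1.8e-06). Its paralog Slc25a28, mitoferrin-2, had 7.2 and 7.85 CPM in control and 8.82 and 7.89 in LPS and was not called (0.15 ± 0.25). The difference between the 2 mitoferrins was not tested. Slc25a25, a calcium-regulated ATP-Mg/phosphate carrier, rose from 20 and 17.5 to 77.6 and 61.7 CPM (1.89 ± 0.22), while Slc25a24, of the same carrier type, fell from 127 and 145 to 53.6 and 72.4 CPM (-1.11 ± 0.18). Slc25a17, the peroxisomal carrier of nucleotide cofactors, rose by 0.82 ± 0.19, the aspartate/glutamate carrier Slc25a12 fell by 0.87 ± 0.19 on the log2 scale and Slc25a16 by 0.68 ± 0.20. These last 3 calls were lost without control 1 (edgeR adjusted p = 0.0966, 0.0874 and 0.102), and those of Slc25a17 and Slc25a16 also without control 2 (0.063 and 0.253). The citrate carrier Slc25a1, which feeds cytosolic acetyl-CoA, stood at 65.1 and 52.9 CPM in control and 78.6 and 42.5 in LPS, so its LPS libraries spanned the control values (0.04 ± 0.26).

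Of 20 inorganic ion transporters, 4 rose and 7 fell. The potassium-chloride cotransporter Slc12a4 rose from 41.6 and 38.6 CPM to 117 and 86 (1.34 ± 0.20), whereas its relative Slc12a7 fell from 114 and 117 to 67.1 and 55.2 CPM (-0.92 ± 0.17). These 2 cotransporters therefore moved in opposite directions. The sodium-bicarbonate cotransporter Slc4a7 rose by 1.00 ± 0.21 and the phosphate importer Slc20a1 by 0.83 ± 0.16. Slc8a1, the plasma membrane sodium/calcium exchanger, fell from 104 and 105 CPM to 36.3 and 44.1 (-1.37 ± 0.17) and the mitochondrial calcium exchanger Slc24a6 from 46.3 and 42.5 to 22.6 and 17.6 (-1.14 ± 0.22). Among sodium/proton exchangers, Slc9a2 fell from 13.4 and 13.3 CPM in control to 3.08 and 1.62 in LPS (-2.50 ± 0.34), and Slc9a7 and Slc9a5 had log2 fold changes of -1.20 ± 0.26 and -1.19 ± 0.35. The Slc4a7 and Slc9a7 calls were lost without control 1 (edgeR adjusted p = 0.0638 and 0.081), that of Slc20a1 without control 2 (0.0746), and that of Slc9a5 without either.

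Transporters of vitamins, choline and lipids moved in both directions, with 3 of 12 higher and 3 lower. The choline transporter Slc44a1 rose from 7.02 and 8.82 CPM to 47 and 50.6 (2.62 ± 0.21, edgeR adjusted p = 8.25e-06). The ascorbate transporter Slc23a2 went from 181 and 176 to 458 and 452 CPM (1.35 ± 0.14), and the fatty acid transport protein Slc27a4 from 25.9 and 26.1 to 63.2 and 45.5 (1.06 ± 0.22). Those that fell were the thiamine transporter Slc19a2, from 19.7 and 18 to 6.57 and 7.49 CPM (-1.42 ± 0.23), the lysosomal transporter Slc46a3 (-1.85 ± 0.38) and the fatty acid transport protein Slc27a1 (-0.97 ± 0.22). The 2 fatty acid transport proteins thus moved apart. DESeq2 did not call Slc46a3 (adjusted p = 0.0805), and Slc27a1 lost its call without control 1 (edgeR adjusted p = 0.0844).

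In the Slc35 family, whose best known members carry nucleotide sugars into the Golgi and endoplasmic reticulum, 2 of 21 rose and 4 fell. Slc35g1 fell from 14.9 and 23.4 CPM to 5.13 and 6.68 (-1.70 ± 0.30) and Slc35c2, a relative of the GDP-fucose transporter, from 45.6 and 46.2 to 28.5 and 14.8 (-1.08 ± 0.27). Slc35f6 and Slc35e1 fell by 0.67 ± 0.20 and 0.56 ± 0.16, and Slc35g2 and Slc35f5 rose by 1.55 ± 0.48 and 0.66 ± 0.19. Of these 6 calls, that of Slc35g1 held in all alternatives, Slc35c2 lost its call only without control 2 (edgeR adjusted p = 0.0527) and the other 4 lost theirs without either control library. Of 12 transporters of organic ions, amines and other substrates 2 fell, Slc10a7 (-0.79 ± 0.20) and the lysosomal sialic acid exporter Slc17a5 (-0.72 ± 0.21), and both calls were lost with DESeq2 and without either control library. None of the 3 nucleoside transporters was called; the lysosomal nucleoside exporter Slc29a3 had 53.6 and 60.4 CPM in control and 42.7 and 63.5 in LPS (-0.10 ± 0.20). Of the members that encode no carrier, Slc9a3r1 rose from 50.4 and 47.3 CPM to 193 and 131 (1.73 ± 0.20) and its paralog Slc9a3r2 fell from 4.63 and 4.65 to 1.44 and 0.809 (-2.03 ± 0.43).

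Across all alternatives tried, 18 of the 26 higher and 17 of the 35 lower calls after LPS held each time, and none changed sign. The number of called members was 61 in all, where the main fit called 31.8% of all genes. Fewer members were called when 1 control library was left out, and more when 1 LPS library was left out. The share of all genes called moved in the same directions.

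The second comparison, LPS + VD3 against LPS, asked which of these genes responded to VD3 in cells that also received LPS. VD3 raised 4 members, the scaffold gene Slc9a3r1, the mitochondrial carriers Slc25a51 and Slc25a32 and the carboxylate carrier Slc16a6. It lowered 3, the riboflavin transporter Slc52a3, Slc35e4 and the glutamate transporter Slc1a2. That is 2.38% and 1.79% of 168, against 2.25% called higher and 1.59% called lower of all genes tested, so the members were called about as often as other genes. The other 161 members were not called, among them all metal, inorganic ion, sugar and nucleoside transporters. The median log2 fold change of the members was -0.20, against -0.003 for all genes, and -0.05 without LPS 1. Across members the fold changes followed GC content with Spearman's rho of -0.443, and across all genes with -0.487. With offsets for GC content in the fit, all 7 calls held, 19 members were called, 8 higher and 11 lower, and the median was -0.11. That fit called 7.27% of all genes, against 3.83% in the main fit.

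Slc9a3r1 encodes a scaffold that anchors sodium/proton exchanger Slc9a3 and other membrane proteins to ezrin. It stood at 50.4 and 47.3 CPM in control, 193 and 131 in LPS, then 379 and 436 in LPS + VD3. The 3 groups were stepped without overlap, and both steps were called, 1.73 ± 0.20 from control to LPS and 1.33 ± 0.19 from LPS to LPS + VD3 (SE; edgeR adjusted p = 0.000105 and 0.00486). Without LPS + VD3 1 or 2 the call of the second step was lost (edgeR adjusted p = 0.0557 and 0.117).

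Slc25a51 brings NAD+ into mitochondria, and Slc25a32 has been described as the carrier of folate or FAD there. Slc25a51 stood at 75.6 and 71 CPM in control, 67.5 and 78.3 in LPS, then 139 and 116 in LPS + VD3. Slc25a32 had 14.2 and 13.6 CPM in control, 14.6 and 18.2 in LPS, then 32.2 and 28.9 in LPS + VD3. For both genes control and LPS lay close together, and both LPS + VD3 libraries lay above the other 4. The changes from LPS were 0.81 ± 0.17 for Slc25a51 and 0.90 ± 0.20 for Slc25a32 (edgeR adjusted p = 0.0273 and 0.0413). The Slc25a51 call held in 11 of 17 alternatives and that of Slc25a32 in 7 of 17. DESeq2 did not call Slc25a32 (adjusted p = 0.0783). LPS alone gave -0.01 ± 0.17 and 0.24 ± 0.21, which were not called.

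Slc16a6 was the 1 member that fell with LPS and rose with VD3. It had 57 and 64.3 CPM in control, 20.3 and 26.1 in LPS, then 40 and 43.6 in LPS + VD3, and the groups did not overlap. The change from LPS was 0.85 ± 0.19 (edgeR adjusted p = 0.0413), a call that held in 10 of 17 alternatives. LPS + VD3 stayed below control (-0.54 ± 0.18, edgeR adjusted p = 0.0428), a call lost in 6 of 17 alternatives. Slc16a6 shares 611 exon bases with Amz2 on the opposite strand. How the count table assigned strand is not known here. Amz2 stood at 18.8 to 21.8 CPM in LPS and 17.7 to 20.3 in LPS + VD3, with a log2 fold change of -0.09 ± 0.22. Arsg, which shares 48 exon bases with Slc16a6 on the opposite strand, had the same signs as Slc16a6: it fell after LPS (-2.34 ± 0.34, edgeR adjusted p = 0.000451), was at 0.39 ± 0.42 with VD3 and not called, and was lower in LPS + VD3 than in control (-1.96 ± 0.32, edgeR adjusted p = 0.00101). The part of overlapping reads was not tested.

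Slc52a3 imports riboflavin, the precursor of FAD. It stood at 18.5 and 18.1 CPM in control, 24.4 and 18 in LPS, then 7.75 and 8.56 in LPS + VD3. The control and LPS values overlapped and both LPS + VD3 libraries lay below them (-1.38 ± 0.24 from LPS, edgeR adjusted p = 0.0121; -1.16 ± 0.24 from control, edgeR adjusted p = 0.00403). Slc35e4, of unassigned substrate in the Slc35 family, had 11.3 and 10.9 CPM in control, 19.1 and 13.1 in LPS, then 7.96 and 5.18 in LPS + VD3 (-1.30 ± 0.29, edgeR adjusted p = 0.0413). Slc1a2, the member most raised by LPS, was lower with VD3 (-0.66 ± 0.15, edgeR adjusted p = 0.0413), and its LPS + VD3 libraries at 113 and 112 CPM stayed far above control. Of 17 alternatives, 15 kept the call of Slc52a3 against LPS, and 9 each kept those of Slc35e4 and Slc1a2.

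**Figure D4:**
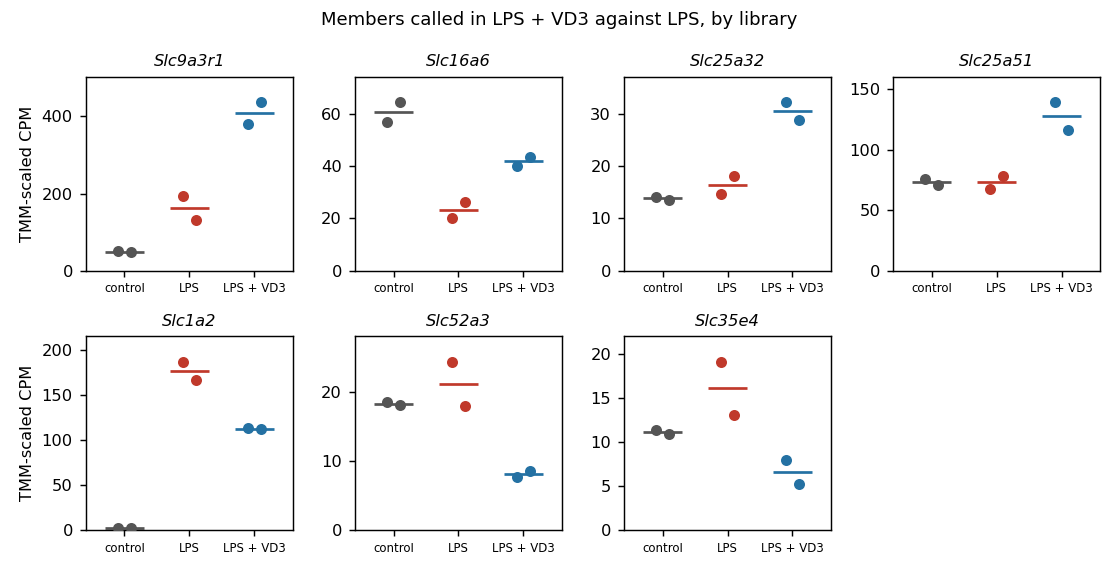
TMM-scaled CPM of the 7 members called in LPS + VD3 against LPS, 1 panel per gene with its own axis from 0; points are the 2 libraries of each group (grey control, red LPS, blue LPS + VD3) and lines their means. Slc9a3r1, Slc16a6, Slc25a32 and Slc25a51 lie higher with VD3 than with LPS alone, and Slc1a2, Slc52a3 and Slc35e4 lower. Red and blue points overlap in no panel, which is no further result, since the members are shown because they were called.

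None of these 7 calls held in every alternative and none changed sign. No call held in edgeR when LPS + VD3 1 or LPS + VD3 2 was left out, and more members were called when LPS 2 was left out. DESeq2 on all libraries called 9 members, and 3.34% of its 15510 genes. When the fit was limited to the 4 libraries compared, and again with no filter on low counts, 2 members were called, Slc9a3r1 and Slc52a3. Over all genes these fits called 2.5% and 1.09%, against 3.83% in the main fit. The share of all genes called was likewise lower when 1 LPS + VD3 library was left out, and far higher when LPS 2 was left out.

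Several carriers raised or lowered by LPS did not pass the test with VD3. Slc3a2 was at -0.22 ± 0.16, Slc15a3 at 0.03 ± 0.18, Slc25a37 at -0.33 ± 0.15, Slc2a6 at -0.20 ± 0.31, Slc31a2 at -0.28 ± 0.18, Slc31a1 at -0.14 ± 0.15 and Slc20a1 at 0.42 ± 0.16 (log2 fold change from LPS ± SE). For these transporters raised by LPS, VD3 made no difference that passed the test. The glutamine carriers were at -0.50 ± 0.21 (Slc1a5), 0.67 ± 0.21 (Slc38a2) and 0.16 ± 0.15 (Slc38a1), and Slc7a5 at 0.87 ± 0.31 (edgeR adjusted p = 0.148). Slc29a3, with 42.7 and 63.5 CPM in LPS and 84 and 91.4 in LPS + VD3, was at 0.72 ± 0.20 (edgeR adjusted p = 0.0866). Slc15a4 (-0.67 ± 0.22), Slc25a1 (-0.56 ± 0.27), Slc30a1 (0.11 ± 0.21) and Slc37a2 (0.07 ± 0.20) were not called either.

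The third comparison set LPS + VD3 against control and uses the same control libraries as the first, so the 2 are not independent. In it 30 of 168 members were higher (17.9%) and 45 lower (26.8%), against 17.7% and 17.3% of all genes tested. The members' median was -0.26, against 0.01 for all genes. The share of higher members was near the background, and that of lower members above it. Fewer members were called when 1 control or 1 LPS + VD3 library was left out, and the share of all genes called fell too. Without scaling 20 members were higher and 78 lower. The fit without scaling called 42.2% of all genes, against 35% in the main fit. Of the 30 higher calls 16 held in every alternative, and of the 45 lower calls 20 did. None changed sign.

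Of 12 vitamin, choline and lipid transporters, 7 were lower and 2 higher. Slc46a3 went from 4.8 and 5.61 CPM in control to 0.419 and 0.398 in LPS + VD3 (-3.60 ± 0.50). Its LPS + VD3 level was the lowest per kb of any member and rests on few counts, so the size of its fall is uncertain. Slc27a1 went from 29.8 and 26.4 to 7.75 and 8.16 CPM (-1.82 ± 0.24). Besides Slc52a3, the B vitamin carriers that were lower stood at -1.45 ± 0.41 for the folate carrier Slc19a1, -1.03 ± 0.23 for the thiamine carrier Slc19a2 and -1.31 ± 0.30 for the biotin and pantothenate carrier Slc5a6. The Slc19a1 call was lost in 4 of 16 alternatives, among them DESeq2 (adjusted p = 0.114), that of Slc5a6 in 3 of 17 and that of Slc19a2 in 2 of 17. The choline transporters differed in sign, with Slc44a1 at 2.39 ± 0.21 and Slc44a2 at -0.88 ± 0.18, a call lost without control 1 (edgeR adjusted p = 0.0657). Of sugar and polyol carriers 1 was higher and 5 lower, with Slc2a6 at 3.28 ± 0.37 and Slc37a1 at -1.81 ± 0.37, the glucose-6-phosphate translocase Slc37a4 at -1.07 ± 0.35 and the hexose transporter Slc2a8 at -1.24 ± 0.42. The Slc37a4 and Slc2a8 calls were lost with DESeq2 (adjusted p = 0.146 and 0.148) and without any 1 of the 4 control and LPS + VD3 libraries.

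Mitochondrial carriers had 6 higher and 4 lower, with mitoferrin-2 (Slc25a28) at 16.1 and 14.3 CPM against 7.2 and 7.85 in control (1.01 ± 0.23, edgeR adjusted p = 0.00692) beside mitoferrin-1 (Slc25a37, 2.19 ± 0.16), and with Slc25a15, the ornithine carrier, newly lower (-0.88 ± 0.28). Both mitoferrins were thus above control in LPS + VD3, though the Slc25a28 call was lost without either control library (edgeR adjusted p = 0.0909 and 0.0601) and without LPS + VD3 1 (0.0506). The Slc25a15 call was lost in 5 of 17 alternatives. Metal and heme carriers had 6 higher and 3 lower, among them the zinc transporter Slc30a9 (0.73 ± 0.16), the zinc importer Slc39a2 (-0.51 ± 0.16) and the magnesium transporters Slc41a1 (-0.77 ± 0.22) and Slc41a3 (-0.84 ± 0.27), none of which was called after LPS. The Slc30a9 call was lost without either control library and without scaling, and those of Slc39a2, Slc41a1 and Slc41a3 without any 1 of the 4 compared libraries. The plasma membrane nucleoside carrier Slc29a1 fell from 87 and 74 CPM in control to 28.7 and 29.7 (-1.46 ± 0.23), a call that held in every alternative. The lysosomal Slc29a3 was at 0.62 ± 0.20, but its call was lost in 8 of 17 alternatives, among them the fit without scaling (edgeR adjusted p = 0.255), with values down to 0.29. Among amino acid carriers, 6 were higher and 8 lower, and the arginine importer Slc7a1 (0.53 ± 0.16) and the lysosomal Slc36a4 (0.64 ± 0.16) were higher here and not called after LPS. Their calls were lost in 8 and 7 of 17 alternatives, among them the fit without scaling (edgeR adjusted p = 0.343 and 0.133) and the fits without any 1 of the compared libraries. Inorganic ion carriers had 4 higher and 7 lower. Of the remaining classes, Slc10a3 (0.73 ± 0.22) was higher, and Slc22a17, the lipocalin-2 receptor (-1.71 ± 0.42), and the UDP-xylose and UDP-N-acetylglucosamine transporter Slc35b4 (-0.57 ± 0.17) were lower. The Slc10a3 call was lost in 8 of 17 alternatives, that of Slc22a17 in 3 of 16 and that of Slc35b4 in 5 of 17. That these members passed here and not after LPS does not show a VD3 effect: apart from Slc25a51, Slc25a32 and Slc52a3, none of the members newly called here was called in LPS + VD3 against LPS.

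**Figure D5:**
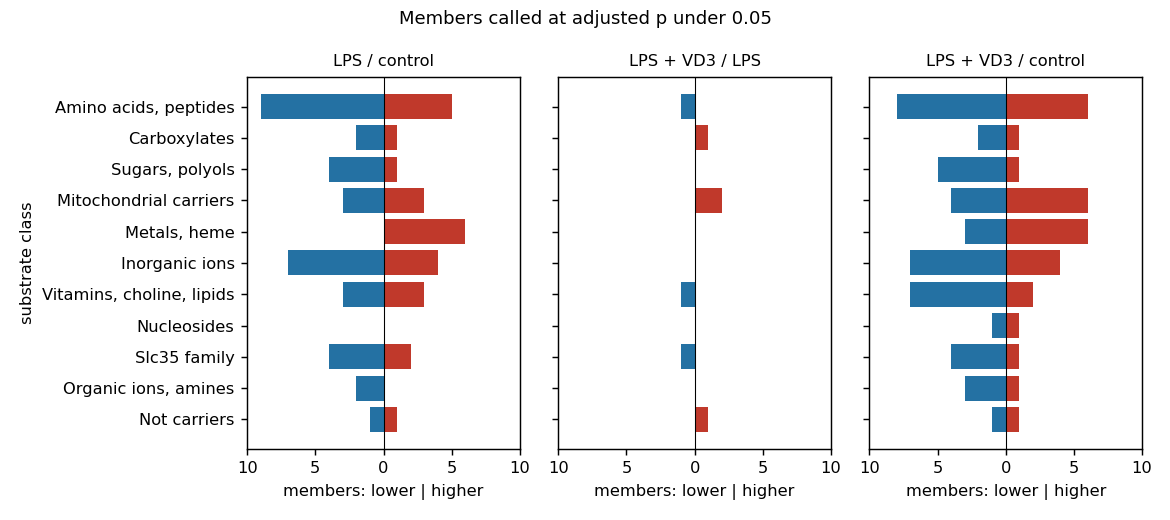
Number of members called at an edgeR adjusted p under 0.05 in each substrate class and comparison; red bars to the right count higher and blue bars to the left lower members, on 1 scale in all panels. Against control both treatments gave calls in both directions, 26 and 35 with LPS and 30 and 45 with LPS + VD3, while LPS + VD3 against LPS gave 4 and 3.

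Carriers and partners that lack an Slc symbol of this form were looked at as a list of 58 genes, 42 of them tested. After LPS 3 were higher and 13 lower, with a median of -0.27, where 15.7% and 16.2% of all genes tested were called higher and lower. The organic anion transporter Slco3a1 had 0 and 1 counts in control and 275 and 241 in LPS, a ratio of 635 (95% exact counting interval 113 to 25122, counting error only). Its relative Slco2b1 went the opposite way, from 102 and 103 CPM to 4.1 and 5.26 (-4.44 ± 0.21, edgeR adjusted p = 2.64e-07). Mfsd7a rose by 2.61 ± 0.30 and Mfsd10 by 0.76 ± 0.26, and Mfsd7c, also called Flvcr2, fell by 2.43 ± 0.19 and the uncoupling protein Ucp3 by 2.87 ± 0.29 on the log2 scale. VD3 on top of LPS raised Mfsd7c (11.1 and 11.5 CPM in LPS, 22.8 and 20.1 in LPS + VD3; 0.92 ± 0.20, edgeR adjusted p = 0.0361) and lowered Mfsd12 (42.5 and 23.5 against 14.2 and 9.55; -1.47 ± 0.32, edgeR adjusted p = 0.0326). In LPS + VD3 against control 2 of the 42 were higher and 14 lower, where the shares over all genes were 17.7% and 17.3%.

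Of the 10 Slc genes left out by name, 9 were tested, of which 5 were higher and 2 lower after LPS. Over all genes tested, 15.7% were called higher and 16.2% lower. None of the 9 was called in LPS + VD3 against LPS. Exons of 17 members overlap those of another gene in the count table on GENCODE vM21. Tmem132a, which shares 94 exon bases with Slc15a3 on the opposite strand, rose by 1.99 ± 0.23 after LPS alongside it. Atraid, which shares 145 exon bases with Slc5a6, was lower in LPS + VD3 than in control (-0.89 ± 0.30, edgeR adjusted p = 0.0398), as Slc5a6 was. Naif1, Oxa1l and Mrps6, which overlap Slc25a25, Slc7a7 and Slc5a3, were not called in any comparison.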

How the data were processed

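RNA was measured in 6 libraries, 2 each of control, LPS and LPS + VD3, made with the Qiagen RNeasy Micro and KAPA mRNA HyperPrep kits per the labels' protocols. The authors deposited whole-number counts per gene, and a second deposited table of log2 values, which equal log2(CPM + 1) within 0.00423 and served only as an alternative. TopHat2, edgeR and mm10 appear, without versions, in the submitters' processing notes. Counter, annotation and strand setting are not known from these sources. Counts were fitted with edgeR 4.0.16 in R 4.3.3: filterByExpr defaults (10724 of 23413 genes kept), TMM, a quasi-likelihood model of 3 group means over all 6 libraries, and Benjamini-Hochberg adjustment over all genes at 0.05. The SE is the fold change over the square root of F. Lengths and GC content come from GENCODE vM21 (GRCm38). Alternatives used DESeq2 1.42.0, limma 3.58.1, other scaling, filters, GC offsets, a replicate block, the log2 table with a pseudocount of 1 or 0.5, a member sum of 30 or 120, and each library left out.

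Members, classes, lists and tests were chosen with earlier results of these data known. In each class and comparison the rule named up to 4 called members each way by p, up to 3 relatives, and 17 carriers in advance, of which Slc34a2 had no counts; most other called members, members named for their level, Slc25a28, genes left out by name and overlapping genes were chosen after their values were seen. A few members are counted but not reported by name here.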

Additional observations from a re-analysis of the deposited data

How the results depend on the processing

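In LPS against control the number of called members stayed within 1.5 times of 61 in all alternatives, between 41 and 83 with 1 library left out. In LPS + VD3 against LPS it was 7, and 2 with no filter, 2 with only the compared libraries, 19 with GC offsets and 0 to 59 with 1 library left out. In LPS + VD3 against control it was 75, and 41 to 103 with 1 library left out. The share of all genes called moved as well. In LPS + VD3 against LPS it was 3.83% in the main fit, 1.09% with no filter, 2.5% with only the compared libraries and 7.27% with GC offsets. In all 3 comparisons it also moved with 1 library left out. The labels share replicate numbers across groups, and name the LPS + VD3 libraries LPS1 plus VD3 and LPS2 plus VD3. They do not say whether equal numbers share cells. Deviations of equal-numbered libraries from their group means correlated at 0.172 (control with LPS), 0.0894 (control with LPS + VD3) and 0.196 (LPS with LPS + VD3). With 2 pairs each, these values cannot decide whether the libraries were paired. The main fit used no pairing. With the replicate number as a block, 73, 23 and 89 members were called in the 3 comparisons, and 37.2%, 10.7% and 41.3% of all genes. With the block and GC offsets 88, 29 and 99 members were called, and 44.7%, 12.1% and 47.7% of all genes. All called members remained called.

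Changes of sign touched members that were not called. In LPS against control, Slc15a4 was at -0.24 without scaling, -0.23 and -0.24 in the deposited log2 table (pseudocount 1 and 0.5), -0.01 with GC offsets, -0.02 with block and GC offsets and -0.19 to 0.26 with 1 library left out. In the same order Slc25a1 was at -0.26, -0.30 and -0.30, -0.14, -0.15 and -0.49 to 0.41, and -0.02 with limma-voom. Slc30a1 was at -0.20 without scaling, -0.21 in the log2 table with either pseudocount and -0.19 to 0.31 with 1 library left out, and Slc29a3 at -0.42 to 0.14. In LPS + VD3 against LPS, leaving out 1 library gave -0.20 to 0.29 for Slc15a3 (-0.01 without scaling), -0.14 to 0.40 for Slc30a1, -0.66 to 0.48 for Slc2a6 (0.21 with GC offsets, 0.23 with block and GC offsets) and -0.21 to 0.30 for Slc37a2. In LPS + VD3 against control, Slc38a1 was at -0.26 without scaling, -0.25 in the log2 table with either pseudocount, -0.00 with GC offsets, -0.01 with block and GC offsets and -0.02 to 0.13 with 1 library left out, and Slc30a1 at -0.12 without scaling and in the log2 table. The cause was not tested.

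With 2 libraries a group, a fit without 1 library assumes that the lone library varies like the other groups. Members near 60 counts in all have wide standard errors, such as 0.43 for Slc9a3r2 after LPS. Counting with sums of at least 30 or 120 gave 63 and 56, 7 and 7, and 77 and 70 called members in the 3 comparisons.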
